A study of Mus musculus with 20 samples.

Results

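Copy number and structural variants segregate even within inbred black 6 mice, and 6 genes known or suspected to vary in this way were followed through RNA sequencing of skeletal muscle from wild-type mice. They were Ide, Fgfbp3 and Btaf1, which are neighbours on chromosome 19, and Entpd4, Nnt and Wdfy1 on chromosomes 14, 13 and 1. The genes were chosen by measured values as well as by repute, because their levels had looked stepwise from library to library and those of the chromosome 19 neighbours had moved together. Their levels, steps and agreement are therefore described here without a test, and only the comparisons of training and sex were tested. All 6 were found among 53465 gene identifiers, and all 6 were among the 15709 genes that passed the filter on low counts. The data were 20 libraries of polyA RNA from wild-type mice of both sexes, with and without training, and each combination of sex and training had 5 libraries. No group carried another allele or agent by its labels. The labels used here give no substrain, age, muscle, training protocol, collection time or batch, and they do not tie each library to an animal of its own, so a p-value here measures how these samples spread, which may be technical in part. No DNA was measured, so copy number itself is unknown. Library numbers are names only.

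Ide encodes the insulin-degrading enzyme, a zinc metallopeptidase that cleaves insulin, amyloid beta and other small peptides. A segment that carries Ide and Fgfbp3 has been described as present in differing copy number among mice of the C57BL/6J colony. Fgfbp3 encodes a secreted protein that binds fibroblast growth factors and frees them from the matrix, and Btaf1 encodes an ATPase that removes the TATA-binding protein from DNA. Entpd4 encodes a nucleoside diphosphohydrolase of the Golgi and lysosomal membranes. Nnt encodes the transhydrogenase of the inner mitochondrial membrane that makes NADPH, and C57BL/6J mice carry a deletion of several of its exons. Wdfy1 encodes an endosomal protein with FYVE and WD40 domains that acts as an adaptor of TLR3 signalling.

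Library totals ran from 22043145 to 38483572 counts. The 9 myofibre markers (among them Acta1, Ckm and Myh4) all passed the filter, and none was at 0 in all libraries. Their summed level was 109037 to 152069 CPM, the counts of a library scaled to a fixed total, so the labelled tissue held its markers. Levels here are CPM on library sizes scaled by TMM, and log2 CPM uses a prior count of 2. Male non-trained library 5 and male trained library 1 stood apart from their groups in several of the 6 genes, and values that rest on them are given with and without them. In Ide and the Entpd4 copies both were nearer to most males of the other training group than to their own. In Arntl, a clock gene, male non-trained library 5 was too (14.9 CPM, with the other non-trained males at 25.8 to 29.1). Male trained library 1 was not (19.2 CPM, with the other trained males at 10.7 to 14.7). Arntl was picked for its low r with Ide, so it is not a separate sign. Every training difference in males depends on their labels, and whether these labels hold was not tested.

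The sequences bear on which of the genes could be counted on its own. Entpd4 (GRCm38 chr14:69337174-69367270, plus strand) has an annotated second copy, Entpd4b (chr14:69555424-69585520, plus strand), and the 1 transcript compared from each in GENCODE M21 was 3589 bases long with 0 differing bases. The first 60 coding bases of both copies are shown because they are the same letter for letter. The start codon is in capitals. In Entpd4 they come from chr14:69347587-69347594 and chr14:69349073-69349124, and in Entpd4b from chr14:69565837-69565844 and chr14:69567323-69567374.
Entpd4: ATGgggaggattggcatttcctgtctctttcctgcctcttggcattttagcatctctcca
Entpd4b: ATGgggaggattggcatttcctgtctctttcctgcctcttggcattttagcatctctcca
Of 8236 distinct windows of 60 bases in the annotated transcripts of Entpd4, all 8236 also occurred in Entpd4b. Reads could not tell the copies apart, and the deposited counts divide them by estimation: Entpd4 received 63.1% to 69.7% of the sum, with a median of 65.6%. The sum of both copies is therefore the quantity used for their level. Ide, Fgfbp3, Btaf1 and Nnt shared 0 such windows with any other gene, and Wdfy1 shared 2 of 5679, both with Stat3.

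Fgfbp3 (chr19:36917550-36919615, minus strand) and Btaf1 (chr19:36926079-37012752, plus strand) start close to each other and run in opposite directions. Their upstream windows are shown because the 2 genes moved together, and that of Entpd4b because it is the Entpd4 copy for which a window was held. The RefSeq table (GRCm38.p6) matched 4 of the 7 genes and copies sought, and for 3 of them the 250 bases before the RefSeq start are printed, in the direction of transcription. Capitals mark matches on either strand to the GC box GGGCGG, the TATA box TATAAA, the CCAAT box, the CRE core TGACG or the E-box CACGTG. The E-box, which clock factors bind, was added after the values were seen.
Fgfbp3 (chr19:36919600-36919849, minus strand): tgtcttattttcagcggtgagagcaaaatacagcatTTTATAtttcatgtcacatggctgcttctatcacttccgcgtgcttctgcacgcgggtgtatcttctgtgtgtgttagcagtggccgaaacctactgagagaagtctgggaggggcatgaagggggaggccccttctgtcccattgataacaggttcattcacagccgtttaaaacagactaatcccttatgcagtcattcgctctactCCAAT
Btaf1 (chr19:36925829-36926078, plus strand): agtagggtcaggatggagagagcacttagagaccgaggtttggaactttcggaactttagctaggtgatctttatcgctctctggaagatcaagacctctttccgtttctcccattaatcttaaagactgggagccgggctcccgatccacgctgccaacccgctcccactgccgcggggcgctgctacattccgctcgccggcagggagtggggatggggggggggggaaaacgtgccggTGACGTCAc
Entpd4b (chr14:69555151-69555400, plus strand): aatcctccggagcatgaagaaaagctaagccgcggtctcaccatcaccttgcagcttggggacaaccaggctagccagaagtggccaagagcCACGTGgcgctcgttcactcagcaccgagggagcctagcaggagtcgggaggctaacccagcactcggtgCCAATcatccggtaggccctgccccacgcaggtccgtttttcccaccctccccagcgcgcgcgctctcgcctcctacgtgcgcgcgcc
The Fgfbp3 window held 1 match each to TATAAA and CCAAT, the Btaf1 window 2 overlapping matches to TGACG on opposite strands, and the Entpd4b window 1 match each to CCAAT and CACGTG. Of all 32851 windows, 32.7% held GGGCGG, 12.4% TATAAA, 33.8% CCAAT, 17.8% TGACG and 6.02% CACGTG. The Fgfbp3 and Btaf1 windows held no match to the same motif. The window of Ide (chr19:37334545-37334794) is not printed, because all of it lies inside the GENCODE gene. The RefSeq start of Fgfbp3 also lies inside its GENCODE gene, which ends at chr19:36919615. The last bases of its window, with the CCAAT match, are therefore within the annotated gene.

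Ide (chr19:37268743-37337852, minus strand) was found at a low and a high range of levels with nothing between them. In non-trained females its level was 249.3, 247.1, 263.3, 237.4 and 172.8 CPM in libraries 1 to 5, with a mean of 234.0 ± 35.4 (SD, n = 5). In trained females it was 278.3, 147.7, 173.6, 243.6 and 165.0 CPM, with a mean of 201.6 ± 56.3 (SD, n = 5). Both female groups thus held low and high libraries, 1 low of 5 without training and 3 low of 5 with it. In non-trained males Ide was at 173.4, 165.9, 165.5, 166.8 and 331.5 CPM, with a mean of 200.6 ± 73.2 (SD, n = 5). In trained males it was at 169.9, 315.8, 231.9, 306.6 and 244.5 CPM, with a mean of 253.7 ± 59.7 (SD, n = 5). In each male group 1 library was nearer to most of the other group: male non-trained library 5 was the highest of all 20, above every trained male, and male trained library 1 lay among the non-trained males of low Ide.

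Sorted by level, 9 libraries held Ide at 147.7 to 173.6 CPM and 11 at 231.9 to 331.5 CPM. The empty stretch between them was 0.42 on the log2 scale, at percentile 82.6 of all genes when at least 2 libraries are asked for on each side. The upper range was itself wide, and the library at the top stood at 2.24 times the lowest. As multiples of the lowest library, the 9 lower libraries ran up to 1.18 times it and the 11 upper ones from 1.57 to 2.24 times. That unit is 1 library and no DNA was measured, so copy number is not read from these multiples. With a gap of at least 0.5 counted as a step, 0 of the 6 genes were stepped, against 12.9% of all 15709 genes tested. With a gap of at least 0.3, 2 of the 6 were, Ide and Fgfbp3, against 28.3% of all genes. On deposited TPM, as log2(TPM + 1), their gaps were 0.25 and 0.23, so neither reached 0.3 there. That of Ide still had 9 libraries below and 11 above. Without TMM the gap of Ide was 0.36. At the threshold of 0.5 a stepwise level was thus not seen in any of the 6. Ide and Fgfbp3 each had a gap of a size that many genes of this table also have. Ide had 3829 to 11423 counts per library, a Poisson error of at most 1.62%, which covers counting only and not the spread between animals.

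**Figure D1:**
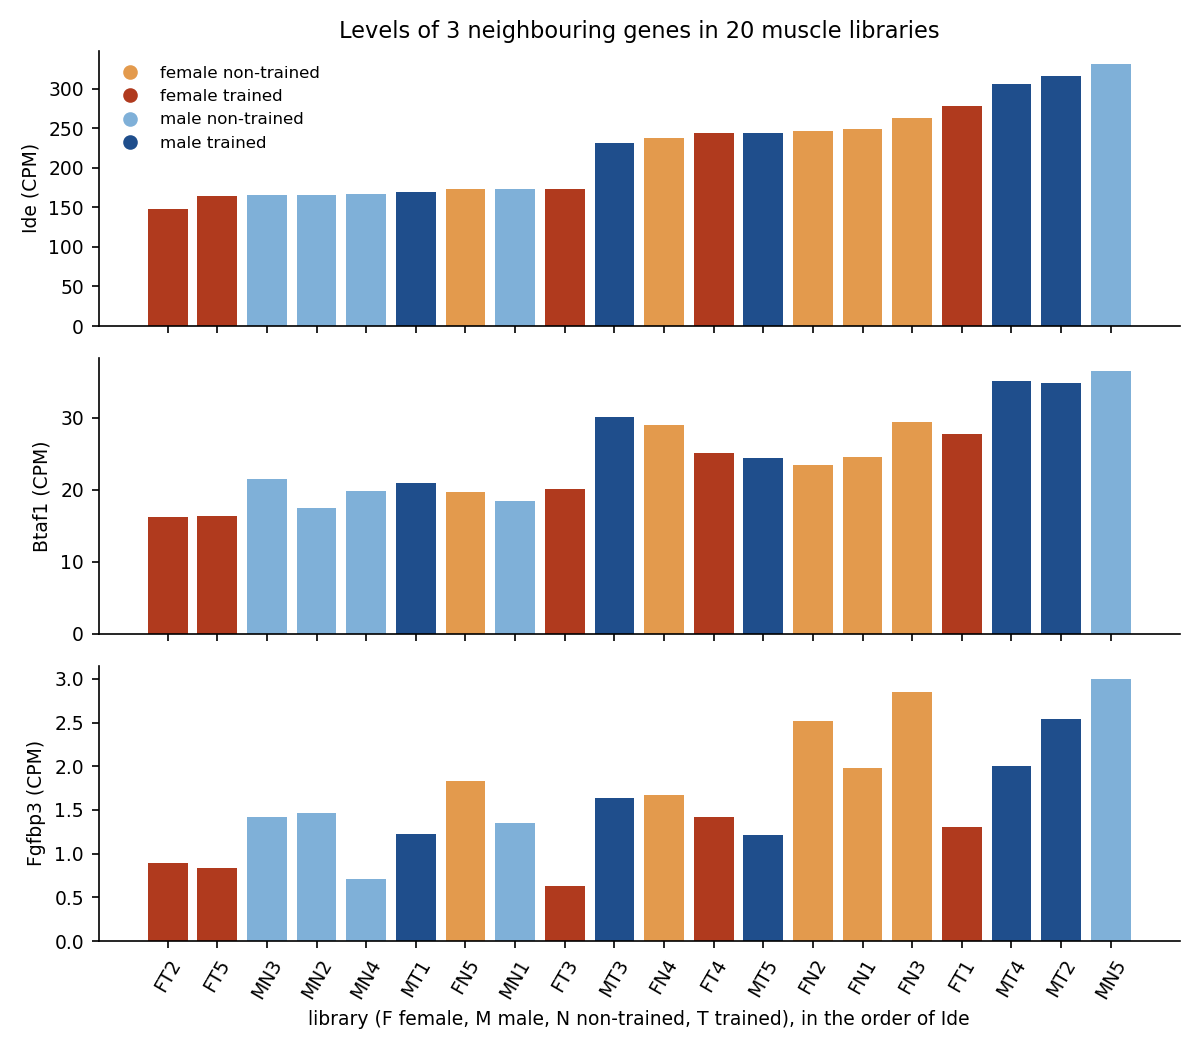
Level (CPM) of Ide, Btaf1 and Fgfbp3 in each of 20 libraries, 1 bar per library, coloured by group and sorted by Ide in all 3 panels. Ide is at 147.7 to 173.6 CPM in the 9 libraries on the left and at 231.9 to 331.5 CPM in the 11 on the right, and each Btaf1 level on the left (16.2 to 21.4 CPM) is below each on the right (23.5 to 36.5 CPM).

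Btaf1 followed Ide closely, though its own longest gap was not at the same place. In the 9 libraries of low Ide it was at 16.2 to 21.4 CPM and in the 11 of high Ide at 23.5 to 36.5 CPM, so that the ranges did not overlap, but its own longest empty stretch (0.21 on the log2 scale) lay higher up, with 17 libraries below and 3 above. Group means were 25.2 ± 4.05 CPM in non-trained females, 21.1 ± 5.22 in trained females, 22.7 ± 7.83 in non-trained males and 29.1 ± 6.32 in trained males (SD, n = 5 each). Male non-trained library 5, at 36.5 CPM, was again the highest of all 20, where the other non-trained males were at 17.5 to 21.4. The ratio of Btaf1 to Ide ran only from 0.0950 to 0.130, with a coefficient of variation of 9.33%, while each gene alone varied by 25.8% and 26.0%.

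After subtraction of group means, log2 CPM of Ide and Btaf1 had a Pearson r of 0.93 and a Spearman rho of 0.92 over 20 libraries. Of 15708 other genes, Btaf1 had the highest r with Ide, and Ide the highest with Btaf1. It was 0.90 at the lowest with 1 library left out, and 0.87 over the 18 libraries left without male non-trained library 5 and male trained library 1. Without subtraction of group means it was 0.93 in females alone and 0.95 in males alone. Since the levels fell into 2 ranges, r was also taken within each, again without subtraction: it was 0.59 (rho 0.45) over the 9 low libraries and 0.79 (rho 0.52) over the 11 high ones. The low-range value rests on female trained library 2, the lowest for both genes, without which r over the other 8 was 0.28. In the high range it was 0.71 at the lowest, without male non-trained library 5. All 20 values share the depth and scaling of their library.

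Fgfbp3 was sparse, with 14 to 94 counts per library, a Poisson error of up to 26.7%. It was at 1.99, 2.52, 2.85, 1.67 and 1.83 CPM in non-trained females, a mean of 2.17 ± 0.50 (SD, n = 5). In trained females it was at 1.31, 0.89, 0.63, 1.42 and 0.84 CPM, a mean of 1.02 ± 0.33 (SD, n = 5). Every trained female was below every non-trained female. In non-trained males it was at 1.35, 1.46, 1.42, 0.72 and 3.001 CPM, and in trained males at 1.23, 2.54, 1.64, 2.003 and 1.22 CPM. The male ranges overlapped, and male non-trained library 5 was the highest of all 20 for this gene as well. Its longest empty stretch, 0.42 on the log2 scale, set 4 libraries apart from 16, not the 9 of low Ide. Fgfbp3 ran from 0.63 to 1.83 CPM in the libraries of low Ide and from 1.22 to 3.001 in those of high Ide, so here the ranges overlapped. Its r with Ide was 0.78 over 20 libraries, ranked 9 of 15708 genes, 0.63 without male non-trained library 5 and male trained library 1, and, without subtraction of group means, 0.21 and 0.53 within the low and the high range. Within the low range it was 0.07 without female trained library 2 and 0.49 without female trained library 3, and within the high range 0.36 at the lowest, without male non-trained library 5.

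The genes around these 3 did not share the pattern to the same degree. Cpeb3 (chr19:37021291-37208601), which binds RNA and controls translation, and March5 (chr19:37207543-37222151), a ubiquitin ligase of the outer mitochondrial membrane, lie between Btaf1 and Ide. Their r with Ide was 0.46 and 0.40, at ranks 535 and 871 of 15708 genes, and March5 varied only from 55.5 to 75.9 CPM. On the other side of Fgfbp3, Tnks2 had an r of -0.45, Ppp1r3c 0.33 and Hectd2 0.44 (rank 640). Beyond Ide, Kif11 had an r of 0.02, Hhex -0.28 and Exoc6 0.01. Kif11 (0.12 to 1.42 CPM) and Hhex (0.62 to 2.93 CPM) were sparse, so counting error weighs on their r. Of 16 protein-coding genes within the locus or 1000000 bases of it, 0 reached an r of 0.5 and 0 fell to -0.5, where 2.41% and 2.08% of all genes did. Btaf1 and Fgfbp3, which followed Ide most closely here, are separated from it by 2 genes that followed it less. Whether the genes share a varying segment was not tested.

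**Figure D2:**
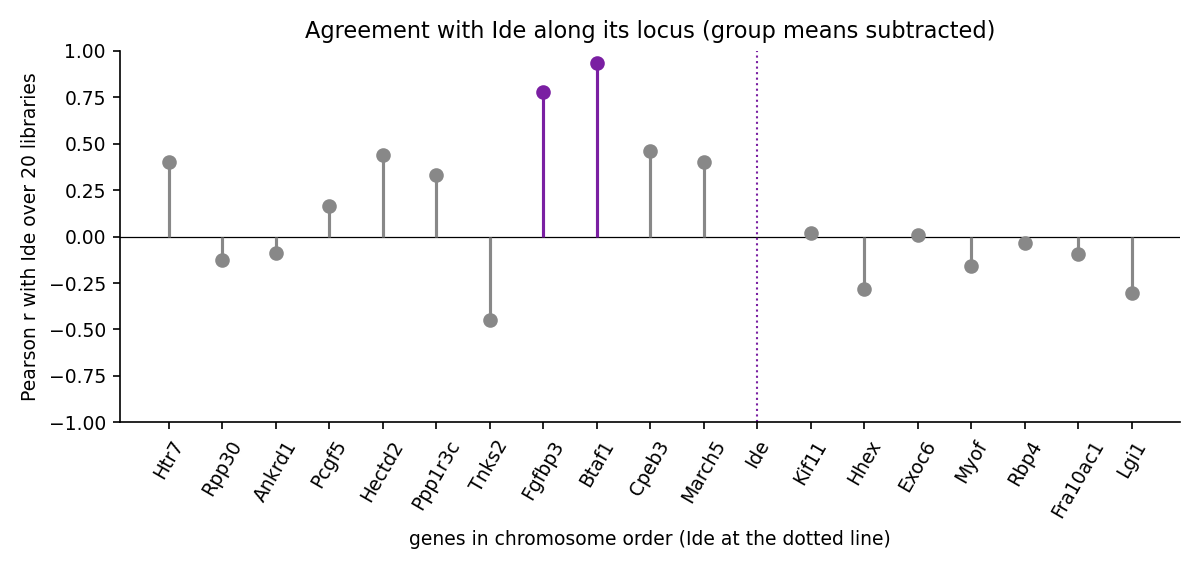
Pearson r with Ide over 20 libraries (log2 CPM, group means subtracted) for the genes of the locus in chromosome order, with the position of Ide as a dotted line. Btaf1 (0.93) and Fgfbp3 (0.78), in purple, stand above the 16 other genes, in grey, of which none reaches 0.5 in size.

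The genes elsewhere in the genome most like Ide were Gm38947 (r 0.88), Hdac4 (0.88), Serpini1 (0.85), Acot2 (0.84) and Cipc (0.80). Those most like Btaf1 were Hdac4 (0.89), Gm38947 (0.87), Acot2 (0.83), Per2 (0.81) and Cipc (0.81). Those most like Fgfbp3 were Cipc (0.82), Uevld (0.77), Ap1ar (0.76), Acot2 (0.74) and Slc39a13 (0.74). Per2 and Cipc are negative regulators of the circadian clock, and the gene with the lowest r with Ide of all 15708 was Arntl (-0.83), which encodes the clock's activator BMAL1. Arntl ran from 10.7 CPM in male trained library 5 to 39.6 CPM in female non-trained library 5, and Per2 from 3.16 CPM in that same female library to 30.2 CPM in male non-trained library 5, where Ide was also highest.

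Because of this, 20 clock and clock-output genes were listed after the values were seen. The list holds Arntl, Per2 and Cipc, which prompted it, so its counts are a description only. Of them 8 had an r of at least 0.5 with Ide and 3 of at most -0.5, where 2.41% and 2.08% of all genes did. For Btaf1 the counts were 8 and 3 (2.51% and 2.26% of all genes) and for Fgfbp3 7 and 3 (1.93% and 1.35%). For Entpd4 they were 1 and 1 (2.82% and 2.46%), for Nnt 1 and 4 (6.23% and 5.44%) and for Wdfy1 0 and 0 (4.43% and 3.52%). Per1 (0.56), Per3 (0.67), Nr1d2 (0.65), Rora (0.56), Tef (0.60) and Hlf (0.53) lay with Per2 (0.76) and Cipc on the side of Ide, and Npas2 (-0.76) and Nr1d1 (-0.53) with Arntl on the other. With a linear term for Arntl the r of Ide and Btaf1 was 0.88, and with one for Per2 it was 0.83. That of Ide and Fgfbp3 went from 0.78 to 0.62 and 0.52, and that of Btaf1 and Fgfbp3 from 0.72 to 0.52 and 0.35. Within the high range of Ide, r with Ide had the same sign as over all libraries for 11 of the 11 clock genes past 0.5 in size, but within the low range for 8 of 11. There Arntl was at -0.29, while Nr1d1 was at 0.82, Per1 at -0.50 and Per2 at -0.05. Over all 20 libraries clock genes moved with the levels of the chromosome 19 neighbours, the labels used here give no collection time, and the part of the clock in these levels was not tested. The summed levels of 9 lists of cell type markers (myofibre, Schwann, adipocyte, macrophage, endothelial, fibroblast, erythroid, tendon and satellite cell) had an r with Ide between -0.37 and 0.20. These are sums over lists, while the clock values are of single genes, so they are not compared.

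**Figure D3:**
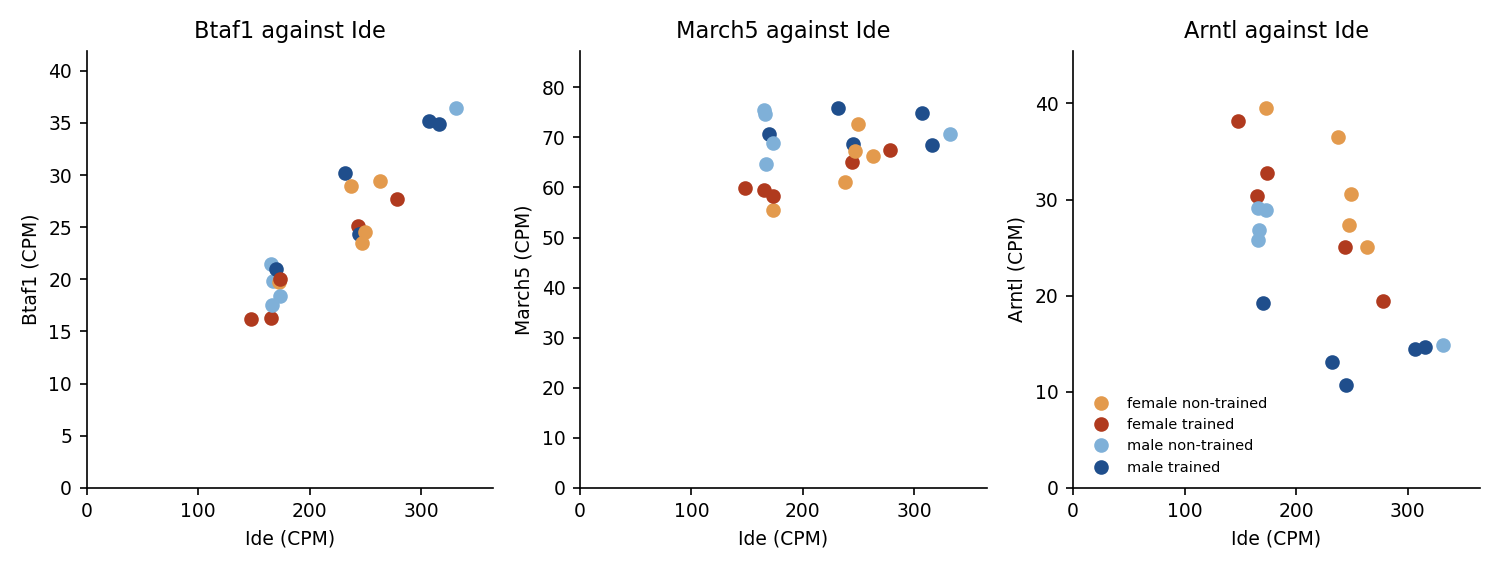
Level (CPM) of Btaf1, March5 and Arntl against that of Ide, 1 point per library, coloured by group, all axes from 0. Btaf1 climbs with Ide from 16.2 to 36.5 CPM, March5, which lies between them on the chromosome, stays within 55.5 to 75.9 CPM, and Arntl runs from 39.6 down to 10.7 CPM, lower in most libraries of high Ide.

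The summed Entpd4 copies varied as much as Ide, in another order. In non-trained females the sum was 202.1, 226.0, 214.2, 193.7 and 168.5 CPM, a mean of 200.9 ± 21.8 (SD, n = 5). In trained females it was 172.5, 164.1, 116.5, 155.5 and 113.8 CPM, a mean of 144.5 ± 27.5 (SD, n = 5). The highest trained female lay just above the lowest non-trained female. In non-trained males the sum was 198.5, 198.2, 208.5, 196.1 and 105.7 CPM, a mean of 181.4 ± 42.6 (SD, n = 5). In trained males it was 241.3, 107.8, 95.5, 119.6 and 135.1 CPM, a mean of 139.9 ± 58.6 (SD, n = 5). Male non-trained library 5 lay among the trained males, and male trained library 1 was above every non-trained male and the highest of all 20.

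In males the sum was lower where Ide was higher: their r was -0.89 over 10 male libraries and -0.87 over the 8 without male non-trained library 5 and male trained library 1. In females it was 0.66 over 10 libraries, so a pooled r (-0.43) describes neither sex. Taken without subtraction of group means, these r values also hold the difference between its training groups. After subtraction of group means and without those 2 male libraries, r over 18 libraries was 0.50. The level of the sum ran from 95.5 to 241.3 CPM, a 2.53-fold span, and its longest empty stretch was 0.20 (log2), with 7 libraries below and 13 above, so it was spread more evenly than Ide.

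Antisense genes overlap both copies, Gm16867 at Entpd4 and Gm27177 at Entpd4b, and 100% of the 60-base windows of Gm27177 recur in Gm16867. Their sum, 1.58 to 27.1 CPM, had an r of 0.87 with the sum of the Entpd4 copies. The overlap covers only the end of each copy, from chr14:69363504 in Entpd4 and from chr14:69582164 in Entpd4b. The library kit keeps strand, but no source used here states whether the counting did. Reads from the overlapping stretches may therefore have been counted for either gene, and the part of this in the r was not tested. The genes most like Entpd4 were Entpd4b (0.95) and Gm27177 (0.88), which share its sequence or place, then Psph (0.77), Arid1b (0.76) and Arhgef18 (0.76). Of 16 protein-coding genes within 1000000 bases, 2 had an r of at least 0.5, Entpd4b and Gm16867 (0.54), where 2.82% of all genes did. The nearest other genes were at -0.42 (Slc25a37), -0.46 (Stc1), -0.01 (Loxl2) and -0.00245 (R3hcc1). Gm16867 (0 to 8.93 CPM) and Stc1 (0.23 to 1.52 CPM) were sparse, so counting error weighs on their r. Cell type marker lists had an r with the sum between -0.37 and 0.37.

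Nnt (chr13:119335448-119408997, minus strand) ran from 27.1 to 85.7 CPM. Females without training had Nnt at 85.3, 54.9, 35.3, 60.9 and 63.0 CPM, and those with training at 62.9, 85.7, 41.5, 60.6 and 63.4, with means of 59.9 ± 17.9 and 62.8 ± 15.7 (SD, n = 5 each). Males without training had it at 55.8, 31.4, 27.1, 48.9 and 33.3 CPM, and those with training at 47.5, 54.5, 34.5, 41.3 and 74.8, with means of 39.3 ± 12.4 and 50.5 ± 15.5 (SD, n = 5 each). All 4 groups overlapped. Its longest empty stretch was 0.24 (log2), at percentile 63.7 of all genes. RNA of Nnt was thus present in every library, and counts per gene do not show which exons it holds, so the known deletion was not examined here.

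The genes most like Nnt were Idh2 (r 0.96), the mitochondrial isocitrate dehydrogenase that also makes NADPH, Myoz2 (0.94), a Z-disc protein of slow and cardiac muscle, Ldhb (0.91), Coq8a (0.89) and Myot (0.89). Myosin heavy chains, which mark fibre types, moved with it: r with Nnt was 0.78 for the slow Myh7, 0.77 for the fast oxidative Myh2, 0.68 for Myh1 and -0.52 for the fast glycolytic Myh4. Myh7 ran from 87.1 to 2256 CPM over the libraries. The r of Ide with the same 4 genes lay between -0.24 and 0.35, and that of Entpd4 between -0.04 and 0.26. The labels used here do not name the muscle, and the part of fibre type in the level of Nnt was not tested. In bulk RNA, fewer fibres of a type and less RNA per fibre cannot be told apart. Of 10 protein-coding genes within 1000000 bases of Nnt, 1 had an r of at least 0.5, Mrps30 (0.60). There were 2 of at most -0.5, Nim1k (-0.57) and Gm21188 (-0.53). Of all genes 6.23% and 5.44% did. The nearest neighbours of Nnt were Paip1 (0.24), 4833420G17Rik (-0.25) and Tmem267 (0.06) above it and Fgf10 (-0.49) below it. Gm21188 (0 to 6.08 CPM) and Fgf10 (0.03 to 1.90 CPM) were sparse, so counting error weighs on their r.

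Wdfy1 (chr1:79702262-79776143, minus strand) was the steadiest of the 6. Females without training had it at 5.93, 7.30, 9.01, 8.04 and 7.58 CPM, and those with training at 8.49, 8.12, 7.62, 9.90 and 6.94. Males without training had it at 8.27, 6.81, 8.38, 8.55 and 7.82 CPM, and those with training at 8.58, 8.46, 7.47, 7.45 and 7.47. All groups overlapped, and the longest empty stretch was 0.07 (log2), shorter than that of most genes (percentile 12.4). With 168 to 306 counts per library its Poisson error was 5.72% to 7.72%. The genes most like it were Gm43808 (0.88), Il7 (0.86), Dtnb (0.84), 4732416N19Rik (0.81) and Ccn4 (0.80). Of 7 protein-coding genes within 1000000 bases, 0 reached 0.5 in size, among them Mrpl44 (-0.49), which overlaps its start. Below Wdfy1 lie Kcne4 (0.27) and Acsl3 (0.12), and the nearest 3 above are Serpine2 (-0.19), Fam124b (0.21) and Cul3 (0.02). Kcne4 (0.70 to 2.99 CPM) and Fam124b (0.10 to 0.995 CPM) were sparse, so counting error weighs on their r. A stepwise level was not seen in Wdfy1.

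Among libraries of 1 group, Ide, Btaf1, Entpd4 and Nnt varied more than most genes of like level. Their residual standard deviation of log2 CPM was 0.37, 0.34, 0.39 and 0.43, at percentiles 94.4, 92.8, 96.0 and 95.8 among the 500 genes nearest in mean level. Fgfbp3, at 0.50, was at percentile 54.8 and Wdfy1, at 0.17, at percentile 20.8. In the deposited TPM, transcripts scaled by length and to a fixed total, the median level was highest for Entpd4 with its copy (96.8 TPM) and Ide (83.0), then Nnt (24.3), Btaf1 (4.64), Wdfy1 (3.15) and Fgfbp3 (1.27). The ranges of the first pair overlapped over libraries (57.9 to 134.6 and 49.6 to 136.0 TPM), those of Btaf1 (3.25 to 8.31) and Wdfy1 (2.52 to 4.44) overlapped as well, and Nnt (12.4 to 38.2) overlapped with neither pair.

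**Figure D4:**
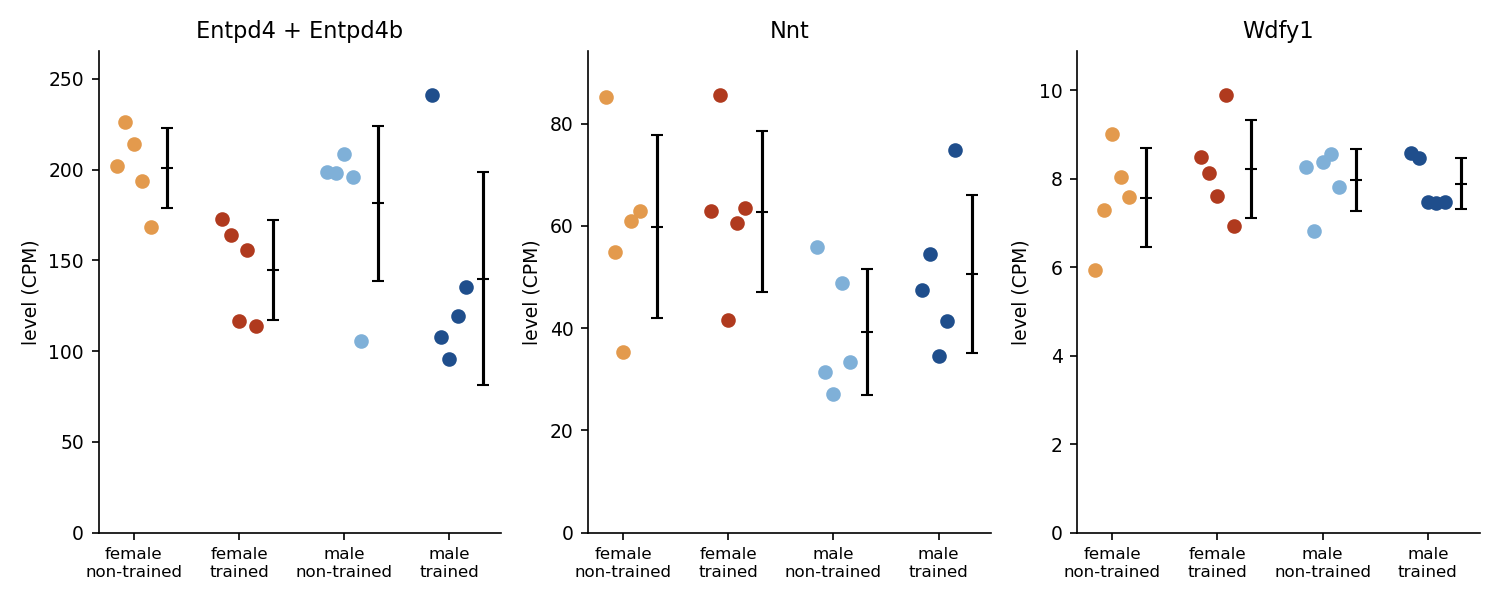
Level (CPM) of the summed Entpd4 copies, Nnt and Wdfy1 by group, 1 point per library, with the group mean and SD (n = 5) as a black bar beside the points. For the Entpd4 copies 1 non-trained male (105.7 CPM) lies among the trained males and 1 trained male (241.3 CPM) above all other libraries, while Nnt spreads from 27.1 to 85.7 CPM and Wdfy1 stays within 5.93 to 9.90 CPM.

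No difference with training or sex passed the threshold for any of the 6 genes by edgeR's quasi-likelihood test with Benjamini-Hochberg adjustment over all 15709 genes. For training in females 0 of 6 were called, with 0% of all genes called, for training in males 0 of 6 (0%), for the training by sex interaction 0 of 6 (0%), and for the mean of both training effects 0 of 6 (0.0127%). For sex, male minus female, 0 of 6 were called in non-trained mice, where 5.21% of all genes were, and 0 of 6 in trained mice, where 5.6% were. DESeq2 and limma-voom also called 0 of the 6 in each of the 6 comparisons. At an unadjusted p under 0.05 by edgeR, training in females had 1 of the 6 (Fgfbp3) and training in males 0. Of all 15709 genes, 1347 and 676 were under it. The interaction had 2 (Btaf1 and Fgfbp3) and the mean 2 (Entpd4 and Fgfbp3), beside 656 and 1441 of all genes. Sex had 1 in non-trained mice (Nnt) and 2 in trained mice (Btaf1 and Fgfbp3), beside 3411 and 3257 of all genes. Such small counts do not set the 6 apart from other genes.

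Ide differed by -0.21 (log2, SE 0.22) between trained and non-trained females and by 0.34 (SE 0.22) between trained and non-trained males (edgeR adjusted p = 0.848 and 0.993). Btaf1 differed by -0.26 (SE 0.21) and 0.36 (SE 0.21) (edgeR adjusted p = 0.787 and 0.993). The interaction, the male minus the female effect, was 0.55 (SE 0.31) for Ide and 0.62 (SE 0.29) for Btaf1, with an edgeR adjusted p of 0.999 for both. Fgfbp3 had the largest difference of the 6: -1.09 (SE 0.33) for training in females, with an unadjusted edgeR p of 0.0032 and an adjusted p of 0.408. Its 5 trained females lay below all 5 non-trained females, and in that comparison the ranges of 1.35% of all genes did not overlap. It was 0.12 (SE 0.32) in males and 1.20 (SE 0.45) for the interaction (edgeR adjusted p = 0.997 and 0.999).

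The summed Entpd4 copies, a fit added after the data were seen, differed by -0.48 (SE 0.22) for training in females and -0.38 (SE 0.22) for training in males, and by -0.43 (SE 0.16) for the mean of both (edgeR adjusted p = 0.575, 0.993 and 0.412). Nnt was lower in non-trained males than in non-trained females by -0.61 (log2, SE 0.25), with an edgeR adjusted p of 0.169, and by -0.31 (SE 0.25) in trained mice (adjusted p = 0.533). Wdfy1 differed by at most 0.13 in size in any of the 6 comparisons. Training differences in males rested in part on the 2 male libraries that stood apart. Without male non-trained library 5 they were 0.60 for Ide, 0.60 for Btaf1, 0.49 for Fgfbp3 and -0.57 for Entpd4 (edgeR adjusted p = 0.599, 0.540, 0.862 and 0.711). The Entpd4 values here are of that copy alone as divided by estimation, -0.43 with all libraries, and not of the sum. Without male trained library 1 they were 0.45, 0.46, 0.22 and -0.73 (edgeR adjusted p = 0.969, 0.969, 0.990 and 0.833). Each of these was larger in size without either library, and none passed the threshold. Nnt went from 0.36 to 0.32 without male non-trained library 5 and to 0.39 without male trained library 1.

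**Figure D5:**
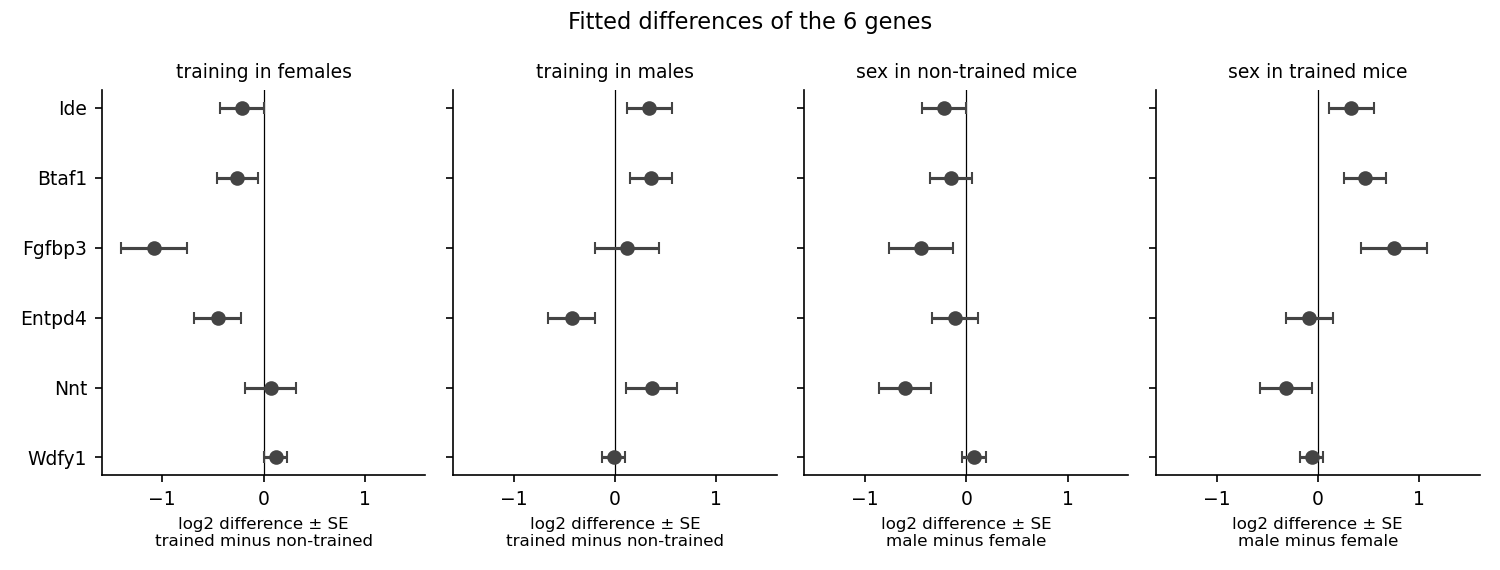
Fitted log2 difference with its SE for each of the 6 genes in 4 comparisons (trained minus non-trained, and male minus female). The widest is that of Fgfbp3 for training in females, -1.09 (SE 0.33), and none passed an adjusted p of 0.05.

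Genes that work with the 6 were followed in fixed lists, which are described by counts and medians. The counts are to be read against all genes: in non-trained mice 5.21% were called for sex, 3.14% higher and 2.07% lower in males, and in trained mice 5.6%, with 3.39% higher and 2.22% lower. None of the 8 lists had a member called for training in females, training in males, the mean of both or the interaction (edgeR). Of 16 insulin receptor pathway genes tested, 0 were higher and 3 lower in non-trained males than in non-trained females, and 0 and 3 in trained mice, where 2.07% and 2.22% of all genes were lower. They were Grb10, an adaptor that dampens insulin signalling (-0.62, SE 0.12, adjusted p = 0.00340), and the transcription factor Foxo3 (-0.50, SE 0.12, adjusted p = 0.0162) and Pik3ca (-0.30, SE 0.08, adjusted p = 0.0364) in non-trained mice. In trained mice they were Foxo3 (-0.53, SE 0.12), Igf1r (-0.32, SE 0.08) and Pik3ca (-0.28, SE 0.08). The median log2 difference of the list was -0.15 and -0.23, where that of all genes was 0.0045 and 0.0030. Another list held genes of the M16 peptidase family as well as insulin- or amyloid-degrading peptidases of other families, with 12 genes tested. In non-trained males Mme, which encodes neprilysin, was higher (1.105, SE 0.29, edgeR adjusted p = 0.0332) and Thop1 lower (-0.30, SE 0.09, edgeR adjusted p = 0.0423). In trained mice 0 were called, where 5.21% and 5.6% of all genes were called in non-trained and trained mice. The medians were -0.08 and -0.05.

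Of 16 genes of FGF ligands, binding proteins and receptors, 3 were lower in non-trained males, Fgfbp1 (-0.92, SE 0.26), Fgf2 (-0.53, SE 0.12) and Fgf13 (-0.51, SE 0.09), and 2 in trained males, Fgfbp1 (-0.997, SE 0.26) and Fgf2 (-0.59, SE 0.12). None was higher, and the medians were -0.12 and -0.15. Of all genes 2.07% and 2.22% were lower. Fgfbp1 is the related binding protein of Fgfbp3, and it was at 3.29 to 23.1 CPM. Of 23 TBP and general initiation factors around Btaf1, 2 were lower in non-trained males, Taf10 (-0.33, SE 0.09) and Taf12 (-0.28, SE 0.08), and 2 in trained males, Taf10 (-0.35, SE 0.09) and Taf7 (-0.45, SE 0.13), with 0 higher and medians of -0.08 and -0.02. These 2 of 23 stand beside 2.07% and 2.22% of all genes lower, and 5.21% and 5.6% called in either direction, and at such small counts nothing is read from them about the list.

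Of 13 diphosphohydrolases and Golgi nucleotide-sugar partners of Entpd4, 0 were called in non-trained mice and 1, the transporter Slc35d1, was lower in trained males (-0.47, SE 0.12), with medians of 0.01 and 0.01. Of 20 genes of mitochondrial NADPH and peroxide handling around Nnt, 2 were higher in non-trained males, the malic enzyme Me2 (1.12, SE 0.24) and the peroxidase Gpx1 (0.35, SE 0.08). In trained males Me2 (1.23, SE 0.24), Gpx1 (0.39, SE 0.08) and the folate enzyme Mthfd2 (0.75, SE 0.21) were higher and Me3 lower (-0.45, SE 0.10), and the list's medians were -0.08 and -0.08. Of 20 FYVE, WD40 and TLR adaptor genes around Wdfy1, Ticam1, the TLR3 adaptor TRIF, was higher in non-trained males (0.54, SE 0.15) and 0 were called in trained mice, with medians of 0.08 and 0.14. With 5.21% and 5.6% of all genes called, the counts of these 3 lists (0 and 1 of 13, 2 and 4 of 20, 1 and 0 of 20) are too small to set the lists apart. Among 5 tested genes at other loci known to differ between C57BL/6 substrains, 1 was called for sex. It was Snap29, higher in males by 0.59 (SE 0.08) without and 0.45 (SE 0.08) with training. Of all genes 3.14% and 3.39% were higher. The medians of the 5 were 0.59, which is the value of Snap29 itself, and -0.23, so nothing is read from them about the list.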

How the data were processed

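Per the file headers, the authors' deposited tables, 1 for each library, hold expected counts, TPM and effective length of every gene. Builds and tools in the submitters' processing notes are GRCm38, RSEM 1.3.1 and STAR 2.5.1, with cutadapt, limma, Trim Galore and edgeR. Their roles are not stated there, and no source used here names the annotation release. Of 53465 identifiers, 53360 matched GENCODE M21, which gave symbols and coordinates. RSEM divides reads that fit several genes by estimation.

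Expected counts were rounded, filtered with filterByExpr (minimum count 10), scaled by TMM and fitted with 1 coefficient per group in edgeR 4.0.16 under R 4.3.3, with genes called at an adjusted p under 0.05. The whole table was fitted and adjusted. DESeq2 1.42.0, limma-voom (limma 3.58.1), other scalings and filters, and each library left out were alternatives. The deposited TPM served for levels between genes. r is Pearson's r of log2 CPM after subtraction of group means unless stated; r within 1 sex or within a range of Ide is without it.

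The 6 genes and all lists were chosen with earlier results of these data known. Named beside them, by rule, were genes within 1000000 bases (the nearest 3 on each side where as many passed the filter), annotated copies, the 5 genes of highest r, and up to 4 called members of each list by smallest p. The clock list, Arntl, the fibre-type myosins taken singly and the summed copies were chosen after values were seen. The fit was tested on simulated counts.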

Additional observations from a re-analysis of the deposited data

Results flagged for a closer look

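In 28 groups of 5 libraries (6 genes and the summed Entpd4 copies in 4 groups), 7 values lay far from the other 4 of their group. Chance alone gives such a value in about 1 group in 20, but the genes were chosen for uneven levels in these libraries, so the count is a description and is not read against that rate. Male non-trained library 5 gave 4 of the 7: Ide at 331.5 CPM where the others were at 165.5 to 173.4, Btaf1 at 36.5 where they were at 17.5 to 21.4, Entpd4 at 68.5 where they were at 129.3 to 139.3, and the summed copies at 105.7 where they were at 196.1 to 208.5. Male trained library 1 gave 2: Entpd4 at 158.0 CPM where the others were at 62.4 to 86.8, and the summed copies at 241.3 where they were at 95.5 to 135.1. The last was Ide in female non-trained library 5, at 172.8 CPM where the others were at 237.4 to 263.3. These flags are not independent of each other, since Btaf1 moves with Ide and the sum holds Entpd4.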

How the results depend on the processing

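None of the 6 genes was called in any of 6 comparisons under any of 27 or 28 alternatives each (lowest adjusted p 0.0804, sex in non-trained mice). Counts over all genes did move. DESeq2 called 1465 for sex in non-trained mice (818 by edgeR), 1401 for sex in trained mice (880), 1 for the interaction (0), 33 for training in females (0), 5 for training in males (0) and 30 for the mean (2), for which limma-voom called 0 and edgeR without a low-count filter 1. Fitting only the groups compared gave 448 for sex in non-trained mice, and no filter gave 558 for sex in trained mice. With 1 library left out the counts ran from 435 (without male non-trained library 3) to 1038 and from 494 (without male trained library 3) to 1239 for sex, and from 0 to 1, 0 to 1 and 0 to 7 for training in females, in males and the mean. The 7 and the 1 in males came without male non-trained library 5. A gap threshold of 0.3 gave 2 stepped genes in place of 0 on TMM-scaled CPM, Ide and Fgfbp3. On deposited TPM the gaps of these 2 were 0.25 and 0.23.

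Some small differences that were not called changed sign. Wdfy1 turned to 0.0091 for sex in trained mice without TMM and to 0.0040 for training in males without a filter. With 1 library left out the range crossed 0 for the mean training effect on Btaf1 (-0.012 to 0.17) and Ide (-0.012 to 0.19), for Entpd4 by sex (-0.17 to 0.020 and -0.38 to 0.016) and interaction (-0.27 to 0.14), for training in males on Fgfbp3 (-0.065 to 0.49) and Wdfy1 (-0.065 to 0.013), for training in females on Nnt (-0.083 to 0.23), and for Wdfy1 by sex (-0.0080 to 0.14 and -0.11 to 0.018). The cause was not tested. Entpd4 by sex in trained mice and by interaction was farthest out without male trained library 1.

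The r of Ide and Entpd4 turned from -0.41 to 0.56 without male non-trained library 5 and male trained library 1, a choice made after the data were seen. Of the 5 genes most like Fgfbp3 and Wdfy1, 0 were the same on deposited TPM, where for Btaf1 and Nnt 4 were. Fgfbp3, with at most 94 counts per library, is limited by depth.

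No paired analysis was possible because the labels carry no replicate numbers that tie libraries of different groups to each other.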
